A study of Homo sapiens with 4 samples.

Results

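The 9 genes described here encode the enzymes of heme synthesis and the carrier that supplies the first of them: SLC25A38, ALAS1, ALAS2, ALAD, UROS, UROD, CPOX, PPOX and FECH. They were taken by gene symbol from the deposited expression table, and all 9 of 9 were among its 28412 genes. They are given in the order of the pathway, and the step between ALAD and UROS was not analysed here. RNA-seq had been performed on 4 libraries of NB4, a human cell line of acute promyelocytic leukemia, to see which transcripts change when LDB1 is knocked down. The group sh-NC (2 libraries) carried a control vector and the group sh-LDB1 (2 libraries) carried a lentiviral shRNA against LDB1, the LIM domain-binding adaptor of a transcription complex that also holds LMO2. Both groups are cells of the same line, and the study selected infected cells with puromycin. Which of the 3 shRNAs designed in the study was used here is not given in the labels, nor are separate cultures for the replicates, so p-values measure the spread between these libraries, which may be technical.

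Heme is an iron-containing ring that hemoglobin, cytochromes and catalase need. Its synthesis starts in the mitochondrion, where glycine and succinyl-CoA are joined to 5-aminolevulinic acid, runs through porphyrin intermediates in the cytosol, and ends in the mitochondrion where iron is put into the ring. The first enzyme exists in a form found in most cells (ALAS1), which heme represses, and in a form of red cell precursors (ALAS2), whose gene is on the X chromosome and is a known target of GATA factors.

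Values are FPKM, in which the fragments counted for a gene are divided by its length in kilobases and by the depth of the library, so levels of different genes can be set side by side per length. The FPKM had been scaled to totals between 14746656 and 16182674 reads per library. Tests covered the 13300 genes whose mean reached 1 FPKM. A gene was called lower or higher at an adjusted p below 0.05 (limma on log2(FPKM + 1), Benjamini-Hochberg over all tested genes) and a fold change below 0.5 or above 2 on that scale. By this rule 10.3% of tested genes were called lower and 9.50% higher. LDB1 itself measured 135.1 and 120.1 FPKM in sh-NC against 10.2 and 9.47 FPKM in sh-LDB1, a fall to 7.73% of the sh-NC mean (log2 fold change -3.56, SE 0.0765, limma adjusted p = 6.93e-05). Scaling the libraries to the same summed FPKM, or by the median of ratios, shifted the median of all genes upward by 0.15 on the log2 scale, and changes are to be read relative to that shift.

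The labelled cell type was checked against its markers. Of 9 promyelocyte markers, 7 had a value, and their summed level was 12.6 and 11.7 FPKM in sh-NC and 41.4 and 37.9 FPKM in sh-LDB1. Among the defining granule proteases, sh-LDB1 replicate 1 was the one library with a value for ELANE, 0.182 FPKM, the other 3 being listed at 0. In the order sh-NC 1, sh-NC 2, sh-LDB1 1 and sh-LDB1 2, PRTN3 measured 1.29, 1.18, 5.50 and 4.50 FPKM, and AZU1 1.94, 1.67, 4.83 and 3.93 FPKM. MPO and CTSG were not analysed here. The 14 erythroid markers, by contrast, summed to 3821.5 and 3970.3 FPKM in sh-NC and to 366.6 and 334.7 FPKM in sh-LDB1. Of these 14, 8 reached 1 FPKM in all 4 libraries, and much of the sum came from single genes such as HBZ (1543.2 and 1600.2 FPKM in sh-NC). Others were low in sh-NC, among them HBB (0.379 and 0.364 FPKM) and EPB42 (0.671 and 0.803 FPKM), named after their values had been seen. By their sums the promyelocyte markers were thus low and the erythroid markers high in libraries labelled NB4. The genes below are described under that label only.

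Results showed that 6 members fell after LDB1 knockdown (ALAS2, FECH, UROD, UROS, PPOX and CPOX), 2 rose (ALAS1 and ALAD), and the glycine carrier SLC25A38 was not past the threshold. The median log2 fold change of the 9 was -1.45, beside -0.08 over all tested genes. The 8 called in either direction stand beside 19.8% of tested genes. By the adjusted p alone, without the fold threshold, the counts were also 6 lower, 2 higher and 8 in all, beside 37.4%, 29.9% and 67.4% of tested genes. In all 9 members the groups did not overlap, which was also the case for 84.6% of tested genes. In bulk RNA, fewer cells of a type and less RNA per cell cannot be told apart.

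**Figure D1:**
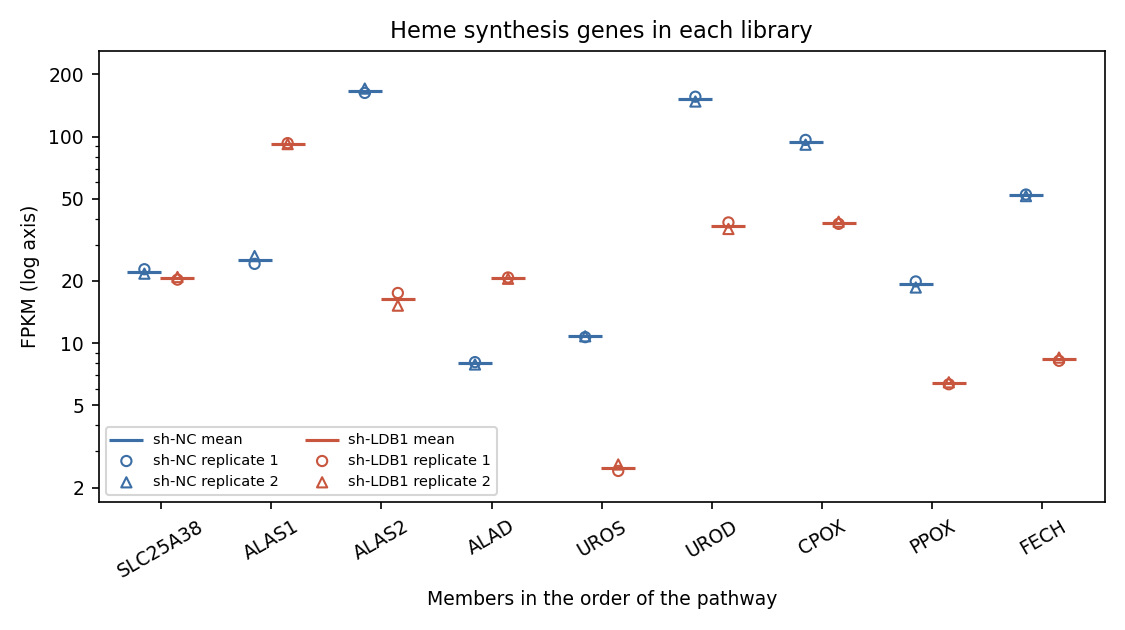
FPKM of each member on a log axis, in the order of the pathway. Circles and triangles are replicates 1 and 2, and bars are the means of the 2 libraries in sh-NC (blue) and sh-LDB1 (red). The 2 replicates lie close together in every pair, and the groups stand apart widely for ALAS2 (166.6 against 16.4 FPKM) and narrowly for SLC25A38 (22.2 against 20.6 FPKM).

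SLC25A38 (ENSG00000144659, chr3:39383370-39397351, plus strand, GRCh38) is the inner membrane carrier that brings glycine into the mitochondrion. It measured 22.8 and 21.7 FPKM in sh-NC and 20.3 and 20.9 FPKM in sh-LDB1. The sh-NC libraries were both slightly higher and the groups did not overlap, but the gap was of the size of the spread between replicates. The log2 fold change was -0.10 (SE 0.0499, 95% interval -0.24 to 0.03, limma adjusted p = 0.128), and it turned to 0.06 with the same summed FPKM in each library and to 0.07 with the median of ratios.

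The 2 genes of the first enzyme moved in opposite directions. ALAS1 (ENSG00000023330, chr3:52198086-52214327, plus strand), the form of most cells, measured 24.2 and 26.4 FPKM in sh-NC and 92.9 and 91.9 FPKM in sh-LDB1. Both knockdown libraries were far above both controls. ALAS1 rose 3.65-fold by the ratio of means, with a mean of 25.3 ± 1.52 in the controls against 92.4 ± 0.727 FPKM after knockdown (SD over 2 libraries), and a log2 fold change of 1.83 (SE 0.0549, limma adjusted p = 9.22e-05). It was the 299th most raised of the 13300 tested genes.

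ALAS2 (ENSG00000158578, chrX:55009055-55030977, minus strand), the form of red cell precursors, measured 162.5 and 170.6 FPKM in sh-NC and 17.5 and 15.2 FPKM in sh-LDB1. The groups were far apart, and the sh-LDB1 replicates of ALAS2 showed the largest gap among the members in that group, 0.195 on the log2 scale. ALAS2 fell to 9.83% of the sh-NC mean, with 166.6 ± 5.75 FPKM in the controls against 16.4 ± 1.66 FPKM after knockdown (SD over 2 libraries) and a log2 fold change of -3.27 (SE 0.0791, limma adjusted p = 7.35e-05). It had the 17th lowest log2 fold change of the 13300 tested genes. ALAS2 was the highest of the 9 members in sh-NC and the sixth in sh-LDB1.

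As FPKM are per length, the share of ALAS2 in the sum of both forms could be given for each library. It was 87.0% and 86.6% in the controls but 15.9% and 14.2% after knockdown. ALAS2 was thus the larger part in both controls, and ALAS1 in both knockdown libraries. Both forms together measured 186.8 and 197.0 FPKM in sh-NC and 110.4 and 107.1 FPKM in sh-LDB1, so their sum in sh-LDB1 was 0.567 times that in sh-NC. No test was run on the share or the sum.

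**Figure D2:**
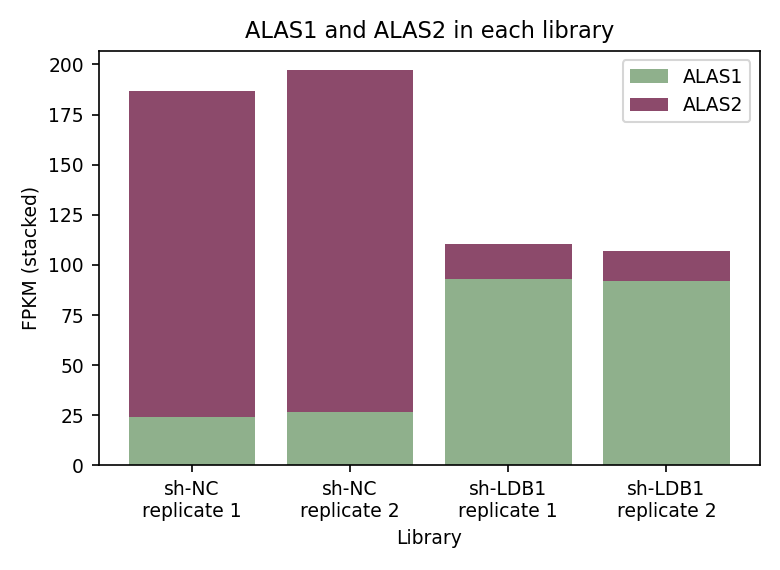
Stacked FPKM of ALAS1 (green, bottom) and ALAS2 (purple, top) in each of the 4 libraries, with the axis starting at 0. ALAS2 makes up 87.0% and 86.6% of the control bars but 15.9% and 14.2% of the knockdown bars, and the whole bar averages 191.9 FPKM in the controls and 108.8 FPKM after knockdown.

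The sequences upstream of the 2 genes are shown because these paralogs moved in opposite directions. They are the 250 bases before the start site in RefSeq (GRCh38.p14), written 5′ to 3′ on the strand of the gene, ALAS2 at chrX:55030978-55031227 (minus) and ALAS1 at chr3:52197833-52198082 (plus). Capitals mark matches, on either strand, to GATA letters (GATA preceded by A or T and followed by A or G), KLF letters (CCNCNCCC) and NFE2 or AP-1 letters (TGANTCA).
ALAS2: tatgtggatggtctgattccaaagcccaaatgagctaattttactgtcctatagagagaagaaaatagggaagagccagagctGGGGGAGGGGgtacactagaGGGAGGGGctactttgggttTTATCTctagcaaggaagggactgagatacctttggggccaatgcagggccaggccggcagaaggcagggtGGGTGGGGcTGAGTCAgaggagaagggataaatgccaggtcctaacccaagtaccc
ALAS1: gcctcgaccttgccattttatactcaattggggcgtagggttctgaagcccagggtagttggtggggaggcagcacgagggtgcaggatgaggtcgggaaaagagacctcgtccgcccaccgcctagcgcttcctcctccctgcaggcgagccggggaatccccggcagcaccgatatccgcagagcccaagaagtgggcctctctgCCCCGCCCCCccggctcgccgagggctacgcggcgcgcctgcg

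The ALAS2 window held 1 GATA match, which begins 127 bases before the start, 4 KLF matches, of which the first 2 overlap each other, and 1 NFE2 or AP-1 match 47 bases before the start. The ALAS1 window held 2 KLF matches that overlap each other, and no match to the other 2. Of 35116 RefSeq windows of the same length, 22.3% held a GATA match, 53.4% a KLF match and 6.57% an NFE2 or AP-1 match. GATA and NFE2 or AP-1 matches stood together in 1.97%, and at least 4 KLF matches in 13.7%. The E-box letters CANNTG, which were not set in capitals, occurred once in each of the 2 windows and in 61.8% of all windows. A match is a description of letters and not a site of binding. As to the factors named for these letters, GATA1, a regulator of red cell genes, fell to 27.7% of its sh-NC mean (226.7 and 222.2 against 63.3 and 61.1 FPKM, log2 fold change -1.83, limma adjusted p = 7.03e-05). KLF1, another such regulator, fell to 12.0% (237.7 and 237.4 against 28.2 and 29.0 FPKM, log2 fold change -3.01, limma adjusted p = 6.77e-05). GATA1 and KLF1 were picked out after their values had been seen, and other factors named for these letters are not reported here. The part of GATA1 and KLF1 in the changes of ALAS2 and ALAS1 was not tested.

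ALAD (ENSG00000148218, chr9:113386312-113401290, minus strand) joins 2 molecules of aminolevulinic acid to porphobilinogen. It measured 8.10 and 7.89 FPKM in sh-NC and 20.8 and 20.5 FPKM in sh-LDB1. Both knockdown libraries were higher than both controls, with little spread in either group. ALAD rose 2.58-fold (log2 fold change 1.27, SE 0.0468, limma adjusted p = 0.000119), and the SD over 2 libraries was 0.145 FPKM in the controls and 0.214 FPKM after knockdown. It was the lowest member in sh-NC and the fourth in sh-LDB1, where it overlapped with SLC25A38.

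UROS (ENSG00000188690, chr10:125784980-125823258, minus strand) closes the linear tetrapyrrole to uroporphyrinogen III. It measured 10.7 and 10.8 FPKM in sh-NC and 2.41 and 2.59 FPKM in sh-LDB1. The groups lay far apart, and the sh-NC replicates of UROS had the smallest gap of all members in that group, 0.00708 on the log2 scale. UROS fell to 23.2% of the sh-NC mean (log2 fold change -1.75, SE 0.0619, limma adjusted p = 0.000115). The FPKM implied a gene length of 9532 bases for UROS, so its level beside the other members depends on the length the authors used.

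UROD (ENSG00000126088, chr1:45010950-45015575, plus strand) removes carboxyl groups from uroporphyrinogen to give coproporphyrinogen. It measured 155.8 and 147.7 FPKM in sh-NC and 38.4 and 35.7 FPKM in sh-LDB1. Both controls were well above both knockdown libraries. UROD fell to 24.4% of the sh-NC mean, with 151.8 ± 5.72 against 37.0 ± 1.89 FPKM (SD over 2 libraries, log2 fold change -2.01, SE 0.0564, limma adjusted p = 8.31e-05). Of its 4029 exon bases in GENCODE, 375 are shared with HECTD3 on the opposite strand. The smallest length that fitted the FPKM of UROD was 2908 bases, so whether the shared stretch was counted is not known. As the use of strand is not given in the sources used here, any reads of the 2 genes in it cannot be told apart. HECTD3 measured 18.6 and 19.2 FPKM in sh-NC and 28.6 and 28.5 FPKM in sh-LDB1.

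The ratios between steps stood apart in the same way. The level of UROD was 19.2 and 18.7 times that of ALAD in sh-NC and 1.84 and 1.74 times in sh-LDB1. ALAD was at 0.753 and 0.730 times the level of UROS in sh-NC and at 8.63 and 7.91 times in sh-LDB1. ALAD was thus below UROS in both controls and above it in both knockdown libraries. No test was run on these ratios, and which gene of a pair is higher within a library depends on the gene lengths the authors used.

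CPOX (ENSG00000080819, chr3:98579446-98593648, minus strand) oxidises coproporphyrinogen to protoporphyrinogen. It measured 96.3 and 91.3 FPKM in sh-NC and 37.8 and 38.7 FPKM in sh-LDB1. The groups were clearly separate, with the sh-LDB1 replicates close together. CPOX fell to 40.8% of the sh-NC mean (log2 fold change -1.27, SE 0.0467, limma adjusted p = 0.000117), the smallest of the 6 falls. The ratio of CPOX to UROD was 0.618 in both sh-NC libraries and 0.984 and 1.08 in sh-LDB1, where the 2 genes overlapped in level. CPOX shares 163 exon bases with ENSG00000285635 on the same strand, whose reads cannot be assigned with certainty.

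Upstream of CPOX the GATA letters occurred 2 times, which 4.96% of all windows matched or exceeded. A stretch of 108 bases is shown for this, from position -217 to -110 relative to the RefSeq start (chr3:98593721-98593828, minus strand, GRCh38.p14), with GATA and KLF matches in capitals.
CPOX: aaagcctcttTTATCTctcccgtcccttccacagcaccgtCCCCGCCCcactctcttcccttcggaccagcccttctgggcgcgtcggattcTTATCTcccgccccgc

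PPOX (ENSG00000143224, chr1:161166056-161178013, plus strand) oxidises protoporphyrinogen to protoporphyrin. It measured 19.9 and 18.6 FPKM in sh-NC and 6.33 and 6.47 FPKM in sh-LDB1. Both controls exceeded both knockdown libraries. PPOX fell to 33.2% of the sh-NC mean (log2 fold change -1.45, SE 0.0555, limma adjusted p = 0.000123). Of its annotated exon bases, 23.7% are shared with B4GALT3 on the opposite strand, which measured 9.10 and 10.1 FPKM in sh-LDB1, 48.0% of its sh-NC mean. As the use of strand is not given, part of the PPOX value may be reads of B4GALT3 and the reverse, and the part of this in the fall was not tested.

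FECH (ENSG00000066926, chr18:57544377-57586732, minus strand) is the ferrochelatase that inserts iron into protoporphyrin. It measured 52.4 and 51.5 FPKM in sh-NC and 8.22 and 8.52 FPKM in sh-LDB1. The groups were far apart and the replicates close in both. FECH fell to 16.1% of the sh-NC mean, with 52.0 ± 0.636 against 8.37 ± 0.216 FPKM (SD over 2 libraries, log2 fold change -2.50, SE 0.0449, limma adjusted p = 6.77e-05). After ALAS2 it had the lowest log2 fold change of the 9, the 56th lowest of the tested genes. The first and the last enzyme genes of the pathway in its red cell form thus showed the largest falls of the members.

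**Figure D3:**
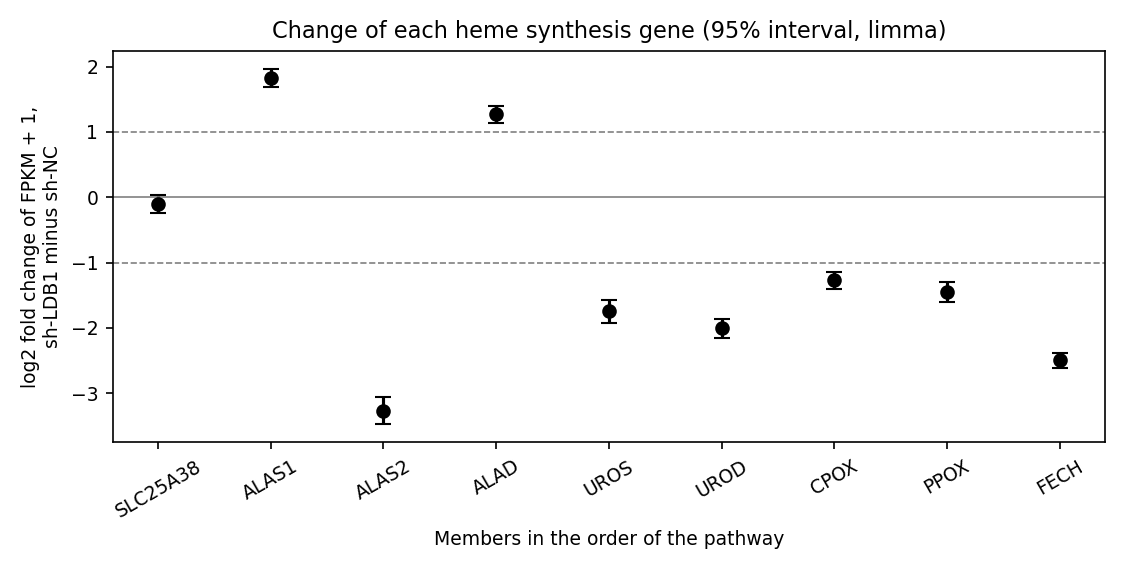
The log2 fold change of FPKM + 1 (sh-LDB1 minus sh-NC) of each member with its 95% interval from limma, n = 2 libraries per group. Dashed lines mark the fold thresholds of 2 and 0.5. ALAS2 (-3.27) and FECH (-2.50) lie lowest, ALAS1 (1.83) and ALAD (1.27) lie above the upper line, and the interval of SLC25A38 spans 0, its value turning to 0.06 and 0.07 under the 2 other scalings.

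The same letters were counted upstream of the other members. No GATA match was found for SLC25A38, UROD or FECH, nor at the first of the 2 start sites that RefSeq lists for ALAD and for PPOX, while the second start site of each held 1. KLF matches numbered 4 in each ALAD window, 3 in FECH, 2 in CPOX and in the second PPOX window, and 0 in UROD, SLC25A38 and the first PPOX window. The 2 ALAD windows overlap, and most of their KLF matches lie in both. Windows were found for 8 of the 9 members, UROS being the exception. Both genes that rose had KLF matches, as did ALAS2, CPOX, FECH and PPOX (at its second start site) among those that fell. Of all windows 53.4% held a KLF match, and ALAD and PPOX had 2 windows each.

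The order of the levels differed between the groups, and within a group it depends on the gene lengths the authors used. In sh-NC it ran ALAS2, UROD, CPOX, FECH, ALAS1, SLC25A38, PPOX, UROS and ALAD, and no neighbours in it overlapped between their replicates. After knockdown it ran ALAS1, CPOX, UROD, ALAD, SLC25A38, ALAS2, FECH, PPOX and UROS, where CPOX overlapped with UROD and ALAD with SLC25A38. The 9 members together measured 552.8 and 546.6 FPKM in sh-NC and 244.6 and 240.5 FPKM in sh-LDB1. The 6 that fell made 497.7 and 490.7 FPKM of this in sh-NC and 110.6 and 107.2 FPKM in sh-LDB1. By the median, the replicates of the members were closer than those of all tested genes, with a gap on the log2 scale of 0.0719 in sh-NC and 0.0438 in sh-LDB1, beside 0.0991 and 0.0758. The tested genes run down to a mean of 1 FPKM and were not matched to the members by level.

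By the profile over the 4 libraries, centred on each gene's mean of log2(FPKM + 1), the 5 tested genes nearest to ALAS2 were RHAG, GYPE, FAM83A, CSE1L and TMOD1, in this order, at Euclidean distances from 0.0905 to 0.180. RHAG, which encodes a glycoprotein of the red cell membrane, measured 237.3 and 254.8 FPKM in sh-NC and 24.7 and 23.3 FPKM in sh-LDB1. Its log2 fold change was -3.31. As the 5 genes were picked by this nearness, log2 fold changes close to that of ALAS2 follow from the choice. The log2 fold changes of the other 4 were -3.36 for GYPE, -3.32 for FAM83A, -3.13 for CSE1L and -3.43 for TMOD1. GYPE shares sequence with related genes, and its value is uncertain for that reason.

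The genes around the pathway were described by 6 lists with 61 genes, of which 56 passed the filter on low values. Of these 56, 13 were called lower and 1 higher, beside 10.3% and 9.50% of all tested genes, and their median log2 fold change was -0.55. The number called lower was 7 under either of the other scalings, where fewer of all tested genes were called lower too. Over all tested genes it was 1001 with the same summed FPKM and 991 with the median of ratios, against 1371 under the deposited scaling. Counts of single lists under the other scalings, given below, are to be read beside these numbers. Among the members themselves, 6 of 9 were called lower under the deposited scaling and under both of the others.

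Carriers of porphyrins, heme and mitochondrial iron included the largest fall of the 6 lists. Of 12 listed genes 10 were tested, and 5 were called lower and 0 higher, beside 10.3% and 9.50% of all tested genes. ABCB10, a mitochondrial transporter needed in heme synthesis of red cells, measured 56.8 and 60.7 FPKM in sh-NC and 4.46 and 6.27 FPKM in sh-LDB1, a fall to 9.14% (log2 fold change -3.24, SE 0.149, limma adjusted p = 0.000167). SLC25A37, mitoferrin-1, which brings iron into the mitochondrion, measured 115.8 and 117.4 FPKM against 32.5 and 32.4 FPKM and fell to 27.8% (log2 fold change -1.81, limma adjusted p = 6.93e-05). In both genes the groups were far apart. FLVCR1, described as a heme exporter, was called at a log2 fold change of -1.05. ABCB6, named after its values had been seen, measured 2.34 and 2.68 FPKM against 0.811 and 0.657 FPKM, 29.2% of its sh-NC mean. Its log2 fold change of -1.02 was just past the threshold of -1, on a scale that understates changes of low genes. TMEM14C, which helps protoporphyrinogen into the mitochondrion, had a log2 fold change of -0.57 and PGRMC1, a heme-binding protein that associates with FECH, one of 0.16 (limma adjusted p = 0.0857), and neither passed the threshold. Without sh-LDB1 replicate 2 the number called lower was 3, and under either other scaling it was 2.

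Of the 9 genes that supply glycine and succinyl-CoA, all tested, 2 were called lower and 0 higher, beside 10.3% and 9.50% of all tested genes. DLD, a subunit shared by mitochondrial dehydrogenases, measured 31.8 and 36.1 FPKM in sh-NC and 10.8 and 10.9 FPKM in sh-LDB1 (log2 fold change -1.55, limma adjusted p = 0.000178). SHMT1, the cytosolic enzyme that makes glycine from serine, measured 5.92 and 6.34 FPKM against 2.29 and 2.51 FPKM (log2 fold change -1.07, limma adjusted p = 0.000478). In both genes the groups did not overlap. The mitochondrial counterpart of SHMT1, SHMT2 (-0.54), and SUCLG1 (-0.62), a subunit of succinyl-CoA synthetase, did not pass the fold threshold. Under either other scaling 1 gene of this list was called lower.

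Of 8 genes of heme breakdown and heme sensing, 6 were tested. Beside 10.3% of all tested genes, 1 of the 6 was called lower. This was BLVRB, biliverdin reductase B, with 325.1 and 288.9 FPKM in sh-NC and 95.7 and 96.1 FPKM in sh-LDB1 (log2 fold change -1.67, limma adjusted p = 0.000139). EIF2AK1, the kinase that halts translation when heme is short, measured 111.3 and 117.2 FPKM against 61.1 and 62.3 FPKM (log2 fold change -0.88), and BLVRA had a log2 fold change of -0.63, neither past the fold threshold. HMOX1, the inducible heme oxygenase, measured 0.0514 and 0 FPKM in the controls and 0.389 and 0.275 FPKM in the knockdown libraries. Its mean was under the filter, and it was not tested. HMOX1 was picked out after its values had been seen.

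Of 14 genes of iron-sulfur cluster assembly, 13 were tested and 2 were called lower, beside 10.3% of all tested genes. BOLA3 measured 21.3 and 20.1 FPKM in sh-NC and 7.06 and 7.52 FPKM in sh-LDB1 (log2 fold change -1.39, limma adjusted p = 0.00015). Both controls were above both knockdown libraries. The chaperone gene HSPA9 (-0.40) and the ferredoxin reductase gene FDXR (0.73) did not pass the fold threshold. The number called lower was 1 without sh-LDB1 replicate 2, without sh-NC replicate 2 and under either other scaling.

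Iron delivery and iron sensing held the 1 gene of the 6 lists that was called higher. Of 8 tested genes 2 were called lower and 1 higher, beside 10.3% and 9.50% of all tested genes. STEAP3, the reductase of endosomal iron, measured 19.1 and 18.6 FPKM in sh-NC and 4.71 and 3.82 FPKM in sh-LDB1 (log2 fold change -1.92, limma adjusted p = 0.000195). TFRC, the transferrin receptor, measured 128.4 and 133.4 FPKM against 60.2 and 59.6 FPKM (log2 fold change -1.11, limma adjusted p = 0.00012). FTL, the ferritin light chain, measured 4723.1 and 5380.6 FPKM in sh-NC and 18604.0 and 18138.9 FPKM in sh-LDB1 (log2 fold change 1.87, limma adjusted p = 0.000198). Both knockdown libraries were thus above both controls for FTL and below them for STEAP3 and TFRC. The ferritin heavy chain gene FTH1 (-0.88) and the iron exporter gene SLC40A1 (-0.50) did not pass the fold threshold. Both ferritin genes have processed pseudogenes that can share their reads, so their values are uncertain, and the call of FTL was lost with no filter on low values. Under either other scaling 1 gene of this list was called lower.

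All 10 genes of heme A synthesis, cytochromes and other heme proteins were tested. Beside 10.3% and 9.50% of all tested genes, 1 of the 10 was called lower and 0 higher. This was CAT, the heme enzyme catalase, with 50.5 and 52.6 FPKM in sh-NC and 11.5 and 10.7 FPKM in sh-LDB1, a fall to 21.5% (log2 fold change -2.12, limma adjusted p = 8.1e-05). The respiratory cytochrome genes CYC1 (-0.54) and CYCS (0.14) did not pass the fold threshold. The number called lower was 2 without sh-LDB1 replicate 1, with a smaller pseudocount and with voom on recovered reads.

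Erythroid markers moved with the members that fell. Of 14 listed genes 11 were tested, and all 11 were called lower, beside 10.3% of all tested genes. The other 3 were under the filter. The median log2 fold change of the 11 was -3.01. HBZ, the embryonic zeta globin, measured 1543.2 and 1600.2 FPKM in sh-NC and 58.9 and 61.3 FPKM in sh-LDB1 (log2 fold change -4.69, limma adjusted p = 6.77e-05). SLC4A1, the anion exchanger of the red cell membrane, had a log2 fold change of -4.15. Beside 9.50% and 10.3% of all tested genes, 3 of the 6 tested promyelocyte markers were called higher and 0 lower. These were CSF3R, the G-CSF receptor (log2 fold change 2.25), LYZ, lysozyme (1.59), and PRTN3 (1.42). AZU1 (0.94, but 2.42-fold by the ratio of mean FPKM) did not pass the fold threshold on the scale used, nor did CD33 (0.32, limma adjusted p = 0.104). The sixth, CEBPE, named after its values had been seen, measured 1.55 and 1.27 FPKM in the controls against 0.924 and 0.340 FPKM after knockdown (log2 fold change -0.58, limma adjusted p = 0.0810), not past the threshold.

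The 4 lymphoid markers with a value summed to 24.1 and 21.3 FPKM in sh-NC and 44.9 and 47.7 FPKM in sh-LDB1. Nearly all of this was CD3D, whose log2 fold change of 0.98 did not pass the fold threshold. The 4 fibroblast markers summed to 0.253 and 0.0961 FPKM in sh-NC and to 1.85 and 1.75 FPKM in sh-LDB1, and none was tested. The part of these shifts in the changes of the heme synthesis genes was not tested.

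**Figure D4:**
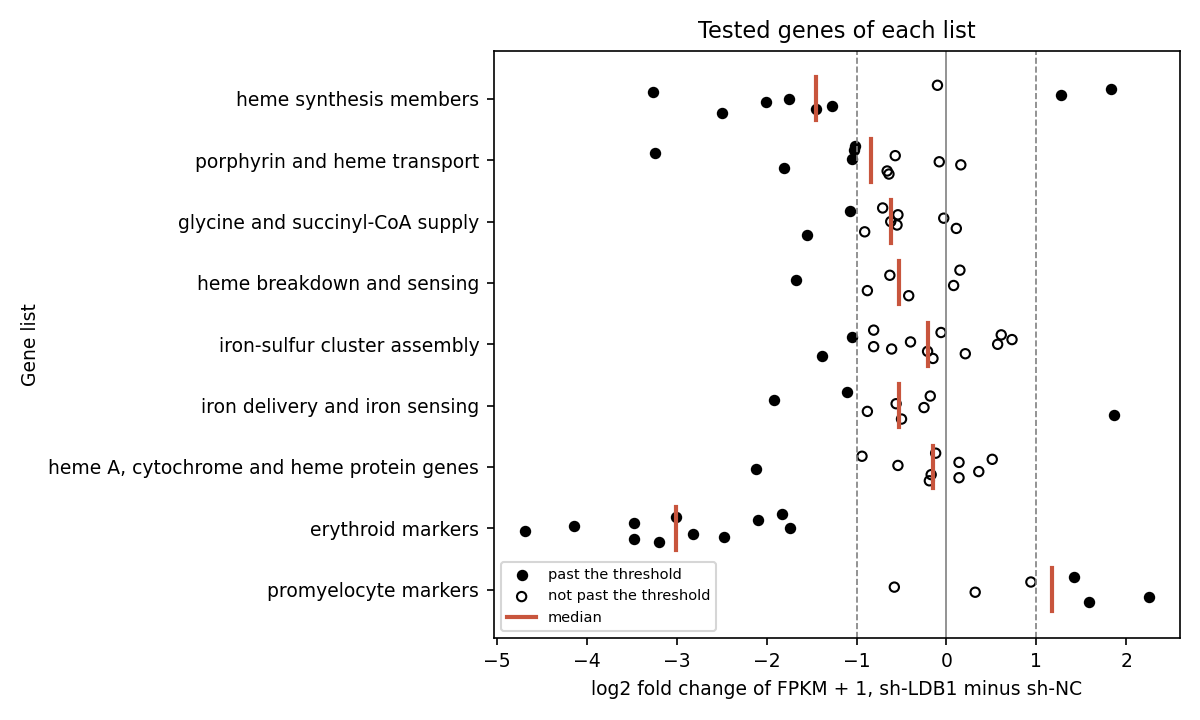
The log2 fold change of FPKM + 1 (sh-LDB1 minus sh-NC) of every tested gene of each list, 1 point per gene, filled where the gene passed the threshold, with the list's median as a red bar and dashed lines at -1 and 1. The members (median -1.45) spread over both directions, while the 11 erythroid markers (median -3.01) all lie below -1. Under the 2 other scalings the median of all genes moved up by 0.15.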

How the data were processed

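RNA-seq of 4 NB4 libraries was analysed, 2 with the control vector (sh-NC) and 2 with the vector against LDB1 (sh-LDB1), grouped and numbered by the sample labels. Per the labels, the libraries were built from total RNA with an Illumina TruSeq kit. Per the methods of the study, the authors filtered the reads and mapped them with HISAT, and the submitters' processing notes name HISAT2 2.0.5 and hg38. The deposited values are FPKM, scaled by the authors, with 1 column per library and 0 columns that belonged to no sample. Gene annotation, counting tool and use of strand are not given in the sources used here. The authors called changed genes with a count test. As the deposited values are FPKM and not counts, limma on a log scale was used here.

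The 13300 of 28412 genes whose mean reached 1 FPKM were compared on log2(FPKM + 1) with limma 3.58.1 in R 4.3.3 (lmFit, eBayes with trend, no replicate block, Benjamini-Hochberg adjustment). Changes of low genes are understated on this scale. The fold thresholds of 2 and 0.5 follow the study, while its threshold of 0.05 on p was applied here to the adjusted p. Other steps used Python 3.11.15, numpy 2.4.6 and pandas 2.3.3. The main limma fit and the recovery of whole reads were tested on simulated data, and the other steps were not.

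FPKM steps are whole multiples of 1 read, and with gene lengths searched around those of GENCODE release 44, whole reads (tolerance 0.005) were recovered for 97.7% of genes. At the smallest length that fitted, the reads behind single values of members ran from 368 (UROS, sh-LDB1) to 7334 (UROD, sh-NC). More than 1 length fitted for ALAS1, UROD, PPOX and FECH, whose reads are therefore lower bounds. Positions are those of GENCODE release 44.

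Named were all members, LDB1, from each other list at most 3 genes past the threshold with the largest change and 2 others with the highest level, the defining promyelocyte markers, and the 5 profiles nearest to ALAS2. Some genes that this rule names are not reported here. Members and lists were chosen with earlier results of these data known. The alternatives were another pseudocount, filter, scaling or threshold, a replicate block, eBayes without trend, voom on recovered reads, and leaving out each library.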

Additional observations from a re-analysis of the deposited data

How the results depend on the processing

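Of the 15 alternatives, changes of the filter, the trend, the block or the threshold left the log2 fold changes of the members as they were. In these the direction could not differ, and without the fold threshold no call could be lost. Under all 15 alternatives 6 members were called lower and 2 higher, and each of the 8 kept its direction and its side of the threshold. Their log2 fold changes ranged from -3.37 to -3.10 for ALAS2, -2.63 to -2.33 for FECH, -2.06 to -1.83 for UROD, -2.11 to -1.61 for UROS, -1.59 to -1.29 for PPOX, -1.31 to -1.10 for CPOX, 1.77 to 2.00 for ALAS1 and 1.25 to 1.43 for ALAD. SLC25A38 changed sign, to 0.06 with the same summed FPKM (limma adjusted p = 0.360) and to 0.07 with the median of ratios (limma adjusted p = 0.301), and over the 15 its adjusted p was 0.0849 to 1.00 (limma, Benjamini-Hochberg). Both scalings shift all genes upward. Over all genes, those called lower and higher went from 1371 and 1264 to 1001 and 1602 with the same summed FPKM, and to 991 and 1609 with the median of ratios, that is from 52.0% lower to 38.5% and 38.1%.

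Of the other genes of the pathway, 13 were called lower and 1 higher. The number lower was 7 with the same summed FPKM, 7 with the median of ratios, 7 when limma tested directly against a fold of 2, 37 with no fold threshold, and 10 to 14 when 1 library was left out. The number higher was 0 with no filter on low values and 7 with no fold threshold. The cause of the loss without a filter was not tested.

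With the replicate number as a block, 6 members were again called lower and 2 higher, with limma adjusted p-values of 0.000414 for ALAS2 and 0.000422 for ALAS1, and no call of a member changed. The deviations of same-numbered libraries from their group means had a correlation of 0.0196 over 13300 genes. The labels do not say whether same-numbered libraries share a culture or a batch, and this correlation cannot decide it. With 2 libraries per group, a fit without 1 of them assumes that the lone library varies like the others.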
